A study of Mus musculus with 9 samples.

Results

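The liver transcriptome of mice conceived by in vitro fertilization with fresh embryo transfer (IVF, 3 mice) was compared with that of naturally conceived mice (NC, 3 mice), gene class by gene class. The comparison covers the 7108 genes whose FPKM (fragments per gene length and per mapped fragments of the library) averaged at least 1 over the 6 libraries, of 55335 genes in the table, and the 6 libraries are 6 of 9 in the series. All 6 mice were B6D2F2 animals aged 20 weeks whose liver was taken after a fast of 4 h. They were males on a normal chow diet by the description of the study. The IVF mice came from oocytes of superovulated B6D2F1/J females that were fertilized in vitro with B6D2F1/J sperm, and were transferred at the 2-cell stage to the oviducts of pseudopregnant ICR females. The NC mice came from natural pregnancies. Fertilization in vitro, superovulation, embryo culture, embryo transfer and gestation in an ICR recipient therefore cannot be told apart in this comparison. The labels number the NC mice 1, 5 and 6 and the IVF mice 2, 3 and 4, and values per mouse are given in that order throughout. Nothing in the sources says that the mice of a group came from separate litters, so p-values measure the spread between these samples.

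The liver makes most plasma proteins, lipoproteins and bile acids, stores and releases fuel, and detoxifies drugs, hormones and nitrogen. Much of this output follows the time of day, because a circadian clock in hepatocytes drives transcription factors such as DBP and REV-ERB, and feeding, growth hormone, glucocorticoids and cellular stress act on the same genes. Conditions around conception have been studied as a possible lasting influence on liver metabolism in the offspring, through imprinted genes and chromatin among others.

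Before any gene was compared, the libraries themselves differed in what kind of RNA they held. The 3 most abundant nuclear non-coding entries (AY036118, Gm23935 and CT010467.1, the last of which is annotated as ribosomal RNA) took 26.5%, 3.49% and 5.03% of the summed FPKM in the NC mice and 61.9%, 19.3% and 18.1% in the IVF mice. Mitochondrial ribosomal RNA took 8.46%, 1.15% and 1.02% in NC and 20.4%, 3.30% and 2.59% in IVF mice. Within each group, NC mouse 1 and IVF mouse 2 were thus the libraries richest in these RNAs. Mitochondrial mRNA took 44.1 ± 12.3% in NC and 22.7 ± 15.1% in IVF mice, and nuclear protein-coding genes took 14.6 ± 4.09% and 15.2 ± 12.8% (± is the SD over 3 mice, here and below). The groups overlapped in each of these shares. Two-sided exact permutation tests of the difference gave p = 0.3 for the non-coding entries, 0.5 for mitochondrial ribosomal RNA, 0.2 for mitochondrial mRNA and 0.9 for nuclear protein-coding genes, where 0.1 is the smallest p that 3 mice against 3 allow. The depth was estimated from the spacing of the lowest FPKM values. It came to 6600000, 12000000 and 13000000 fragments in NC and 8400000, 4500000 and 3900000 in IVF mice. Of these, 1500000, 3600000 and 4500000 in NC and 950000, 1200000 and 1900000 in IVF mice fell on nuclear protein-coding genes. By this estimate the IVF libraries were shallower on these genes than NC mice 5 and 6, and IVF mouse 2 was the shallowest. Genes listed above 0 did not follow it, at 12340, 18594 and 19066 in NC and 19360, 15074 and 15096 in IVF mice. IVF mouse 2 thus had the most such genes and NC mouse 1 the fewest. On a gene of 2 kb, 1 fragment was worth a scaled FPKM of 0.025 to 0.083 in NC and 0.073 to 0.17 in IVF mice. A low value thus rests on few fragments. The running number at the end of each label is 67 for NC mouse 1 and 71, 72 and 73 for the IVF mice, while those of NC mice 5 and 6 lie well above. What the number stands for is not stated, so many class medians are also given against NC mouse 1 alone or without NC mouse 1 and IVF mouse 2.

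**Figure D1:**
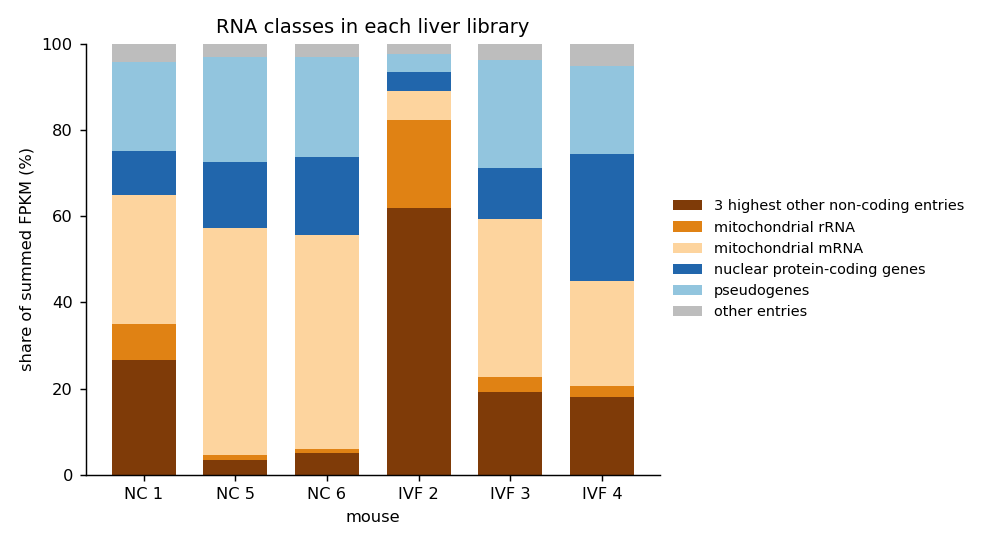
Share of the summed FPKM (%, vertical axis) in 6 RNA classes for each of the 6 liver libraries (horizontal axis, stacked bars adding to 100%). The 3 highest non-coding entries span 3.49% in NC mouse 5 to 61.9% in IVF mouse 2, and mitochondrial mRNA spans 6.74% in IVF mouse 2 to 52.6% in NC mouse 5.

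Hepatocyte genes were abundant in both groups. All 10 hepatocyte markers were above 0 in every mouse, and their summed level, in FPKM scaled between libraries by median-ratio size factors, was 11270, 14730 and 13360 in the NC mice and 9574, 13350 and 17660 in the IVF mice. The summed level of 14 Kupffer cell and macrophage markers was 42.6, 42.3 and 39.4 in NC and 32.7, 61.7 and 51.4 in IVF mice, and that of 14 liver endothelial markers was 20, 21.4 and 23.8 against 25.8, 15.7 and 14.5. The groups overlapped in each of these sums. Stellate cell and fibroblast markers (14 genes) summed to 32.7, 22.8 and 30.4 in NC and to 38.9, 61.7 and 43.4 in IVF mice, so every IVF mouse was above every NC mouse in the sum. Taken singly, the groups overlapped in all 8 of these genes that were tested. Red blood cell markers (8 genes) summed to 934, 256 and 362 in NC and to 222, 230 and 220.1 in IVF mice, so every IVF mouse was below every NC mouse. Cholangiocyte markers (10 genes) summed to 10.9, 17.6 and 9.56 in NC and 6.07, 7.17 and 10.03 in IVF mice, with Cftr listed at 0 in all 6, and the 16 lymphocyte and neutrophil markers summed to 0.888 to 8.67, with Gzma listed at 0. In bulk RNA such as this, fewer cells of a type and less RNA per cell cannot be told apart.

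No gene passed the test between IVF and NC mice. Of the 7108 genes, 0 (0.0%) reached an adjusted p under 0.05 by limma with Benjamini-Hochberg adjustment, and the smallest adjusted p was 0.25. At an unadjusted p under 0.05, 634 genes were found. Of these, 288 (4.05% of the genes tested) were higher and 346 (4.87%) lower in IVF mice. None of them passed after adjustment, so such a p alone is not counted as a change. In 501 genes (7.05%) every IVF mouse was above every NC mouse, and in 598 (8.41%) every IVF mouse was below every NC mouse, which is called apart below. In 50.4% of genes the difference was positive, and the log2 fold changes had a median of 0.00 over the genes tested. In the FPKM as deposited, which carry the library shares described above, this median was −0.26 and 21 genes (0.295%) passed the adjusted threshold, 12 higher and 9 lower, of which 10 were listed at 0 in all mice of one group. Class medians below are therefore to be read against a median of 0.00 in scaled values and of −0.26 in deposited ones. Of the genes described below, Gadd45g, Socs2 and Gm23238 were among the 12 higher ones that passed as deposited. Chrna4, Mafg, Trbv1 and Trbd2 were among the 9 lower ones. A gene with a mean deposited FPKM under 1 in one group was tested only because the other group was high, so its direction was largely fixed by the filter and its difference is given as a description. This was so for 448 genes tested through the IVF mice only and for 764 tested through the NC mice only, and is stated where such a gene is named. All log2 fold changes are IVF minus NC on the log2(scaled FPKM + 1) scale, which understates the difference of low genes. After the levels of a gene, the value in parentheses is its log2 fold change ± standard error. Counts of genes under 0.05 refer to limma's unadjusted p, and adjusted p-values are limma's with Benjamini-Hochberg adjustment.

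**Figure D2:**
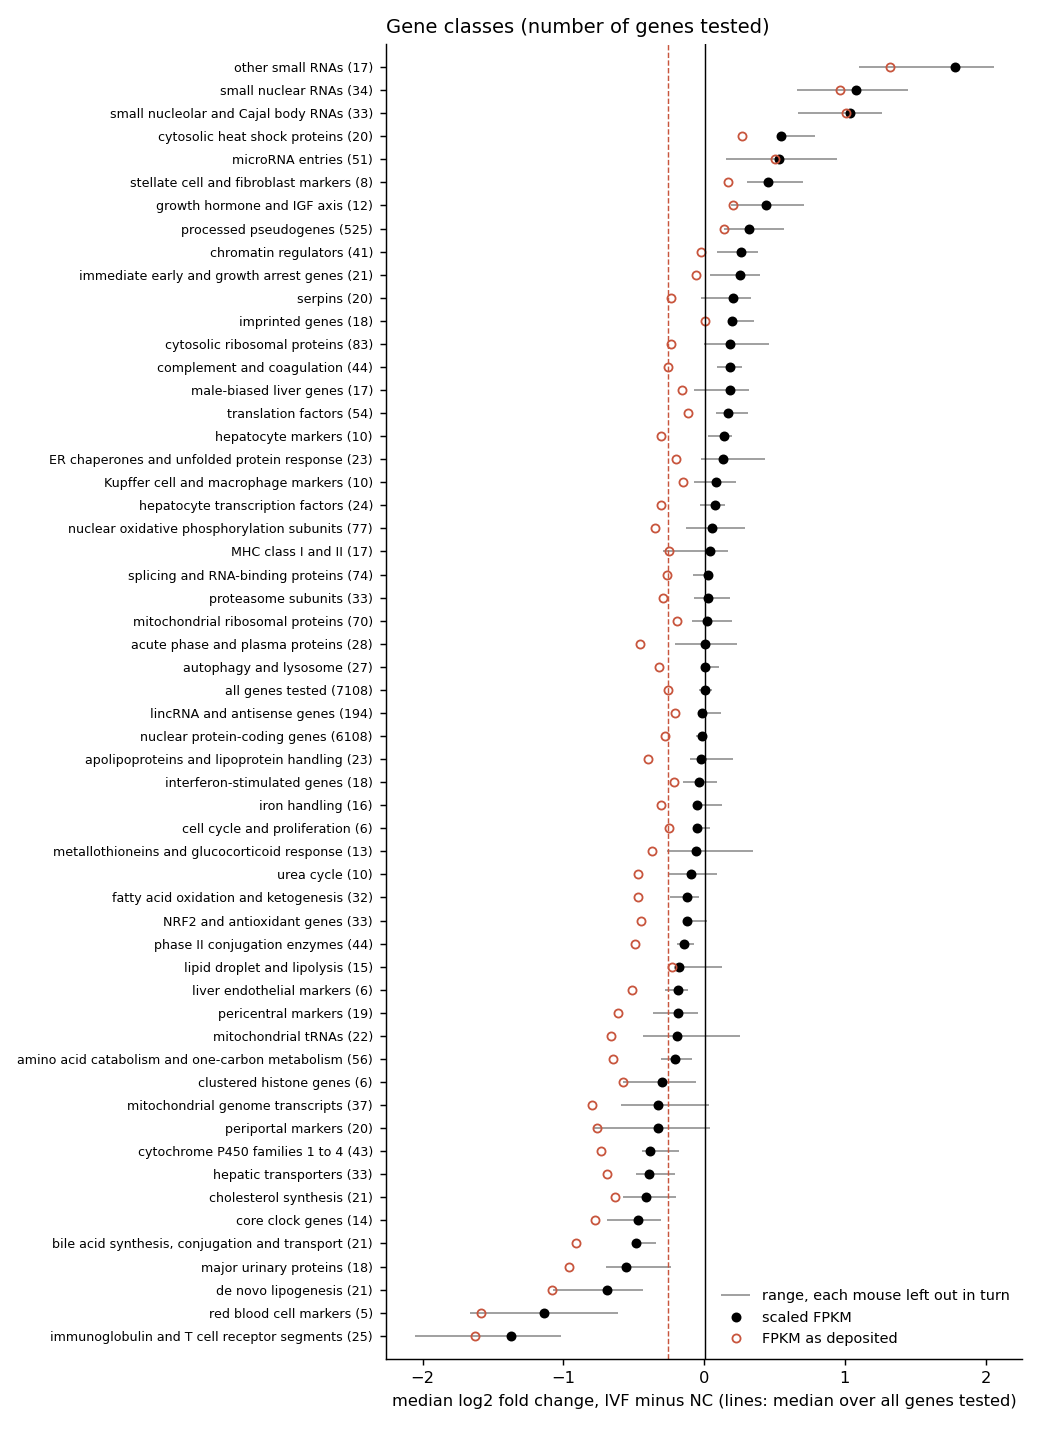
Median log2 fold change (horizontal axis, IVF minus NC) of 55 gene classes with at least 5 genes tested, filled circles for scaled FPKM and open circles for FPKM as deposited, with bars for the range when each mouse is left out in turn and vertical lines for the median of all genes (0.00 and −0.26). Red blood cell genes, lipogenesis and clock genes lie on the negative side and heat shock proteins and the nuclear small RNA classes on the positive side, in scaled and deposited values.

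Most circadian clock genes were lower in IVF mice, Dbp and Nr1d1 with the largest differences among them. The clock is a feedback loop in which BMAL1 and CLOCK switch on Per and Cry genes, whose products repress them, while REV-ERB proteins (Nr1d1, Nr1d2) repress Bmal1 and the PAR bZIP factors DBP and TEF pass the rhythm on to metabolic genes. Of 14 clock genes tested, 10 were lower and 4 higher in IVF mice. At an unadjusted p under 0.05 there were 5 lower and 1 higher, and 4 lower and 1 higher were apart. The median difference was −0.47, or −0.78 as deposited and −0.67 without NC mouse 1 and IVF mouse 2. It was −0.30 against NC mouse 1 alone and −0.31 without NC mouse 5. Dbp was at 14.2, 15.7 and 14.3 in the NC mice and 3.61, 0.513 and 1.84 in the IVF mice, a log2 fold change of −2.54 ± 0.41, adjusted p = 0.287. Every NC mouse was well above every IVF mouse, and NC mouse 1 stood with the other NC mice. Nr1d1, the gene of REV-ERBα, was at 7.28, 4.93 and 5.53 in the NC mice and 1.77, 0 and 0.688 in the IVF mice, so one IVF library is listed at 0, and its log2 fold change was −2.03 ± 0.39. Ciart, a repressor of the CLOCK and BMAL1 complex, was at 2.68, 2.55 and 3.13 in the NC mice and 0.432, 0.854 and 0.642 in the IVF mice (−1.21 ± 0.24). Per3 was at 3.06, 3.27 and 2.77 in the NC mice and 1.83, 0.349 and 0.48 in the IVF mice (−1.18 ± 0.33). In all 4 of these genes the 3 NC mice lay close together and the groups were apart in scaled and in deposited values, but Nr1d1, Ciart and Per3 were tested through the NC mice only, and Dbp through both groups. Cry1, a repressor of the loop, ran the other way, at 0.555, 0.83 and 0.508 in the NC mice and 1.24, 1.55 and 2.94 in the IVF mice (0.80 ± 0.30), with the groups apart after scaling but not as deposited, and was tested through the IVF mice only. Of the 8 clock genes that reached a mean of 1 in both groups 6 were lower and 2 higher, with a median of −0.21. Nr1d2, at 4.27, 7.31 and 7.31 in the NC mice and 5.0, 1.29 and 2.38 in the IVF mice, had a difference of −0.99 ± 0.41 but IVF mouse 2 lay within the NC range. Per2, one of the highest clock genes here, also overlapped, at 4.85, 12.9 and 7.59 in the NC mice and 7.57, 3.44 and 3.21 in the IVF mice (−0.71 ± 0.43). The hour of tissue collection is not stated, and its part in these differences was not tested.

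Since clock factors act through E-boxes and D-boxes and heat shock factors through heat shock elements, the 250 bases before the gene start were searched on both strands for CACGTG (E-box), TTATGNAA (D-box) and GAANNTTC (the core of a heat shock element). Promoters from RefSeq, build GRCm38.p6, matched 11 of the 14 clock genes and 17 of the 20 heat shock genes tested. An E-box was in 4 of the 11 clock promoters (Ciart, Cry1, Per1 and Tef) and in 6.86% of the promoters of 27025 genes. A D-box was in 2 of 11 (Per1 and Per3) and in 3.63% of all. GAANNTTC was in 7 of the 17 heat shock promoters (Cct2, Dnaja1, Hspa1a, Hspa1b, Hspb1, Hspd1 and Hspe1) and in 7.73% of all, and in 0 of the 11 clock promoters. Below are the promoters of a clock gene that was lower (Ciart, chr3:95882229-95882478, minus strand), of Cry1, the only higher clock gene under 0.05 (chr10:85185055-85185304, minus strand), of a lower gene with D-boxes (Per3, chr4:151044666-151044915, minus strand) and of a higher heat shock gene (Dnaja1, chr4:40722218-40722467, plus strand), written 5′ to 3′ on the gene's strand with the motif in capitals. They show that the lower Ciart, with 3 E-boxes, and the higher Cry1, with 1, share the motif. A match is a description of the letters, not a site of binding.
Ciart: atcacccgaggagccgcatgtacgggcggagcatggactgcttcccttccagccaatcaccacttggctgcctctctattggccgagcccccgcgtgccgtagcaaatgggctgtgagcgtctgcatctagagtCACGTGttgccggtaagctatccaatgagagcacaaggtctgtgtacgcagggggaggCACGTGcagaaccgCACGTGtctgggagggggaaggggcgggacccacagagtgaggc
Cry1: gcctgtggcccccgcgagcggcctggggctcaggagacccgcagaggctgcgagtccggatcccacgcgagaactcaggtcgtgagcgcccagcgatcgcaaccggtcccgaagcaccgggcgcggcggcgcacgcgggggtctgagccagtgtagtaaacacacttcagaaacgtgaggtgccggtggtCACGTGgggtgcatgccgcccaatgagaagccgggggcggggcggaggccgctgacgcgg
Per3: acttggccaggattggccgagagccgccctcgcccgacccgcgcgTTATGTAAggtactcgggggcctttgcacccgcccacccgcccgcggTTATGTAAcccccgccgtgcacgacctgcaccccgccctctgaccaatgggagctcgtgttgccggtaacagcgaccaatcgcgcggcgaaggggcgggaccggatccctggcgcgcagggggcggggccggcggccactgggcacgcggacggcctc
Dnaja1: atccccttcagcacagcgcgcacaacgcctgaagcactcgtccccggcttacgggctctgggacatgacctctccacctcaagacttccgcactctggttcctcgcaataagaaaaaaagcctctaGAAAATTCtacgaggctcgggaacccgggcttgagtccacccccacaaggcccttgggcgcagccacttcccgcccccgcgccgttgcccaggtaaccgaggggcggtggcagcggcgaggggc

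Heat shock proteins, chaperones that fold and refold other proteins, were higher in IVF mice almost throughout. The list is mainly of cytosolic chaperones but also holds Hspd1 and Hspe1, the chaperonins of mitochondria. Of 20 genes tested, 19 were higher and 1 lower. There were 8 higher at an unadjusted p under 0.05 and 0 lower, and 11 were apart, all of them higher. The median difference was 0.55, or 0.27 as deposited, 0.57 against NC mouse 1 alone and 0.77 without NC mouse 1 and IVF mouse 2. Hsph1, a nucleotide exchange factor for HSP70, was at 2.81, 0.712 and 1.37 in the NC mice and 9.34, 6.6 and 5.38 in the IVF mice (1.67 ± 0.36, adjusted p = 0.292). Dnajb1, the HSP40 co-chaperone, was at 4.18, 3.2 and 2.77 in the NC mice and 7.87, 32.9 and 40.7 in the IVF mice (2.42 ± 0.58), so the IVF mice themselves ranged widely. Hsp90aa1, the inducible HSP90, was at 41.4, 19.5 and 21.1 in the NC mice and 54.6, 75.9 and 81 in the IVF mice (1.4 ± 0.39). In these 3 genes NC mouse 1 was the highest NC mouse and still below every IVF mouse. The constitutive HSP70 Hspa8, the most abundant gene of the class, was at 94, 102 and 79.7 in the NC mice and 127, 164 and 255 in the IVF mice (0.93 ± 0.37). Stip1, which bridges HSP70 and HSP90, was at 10.1, 7.51 and 7.15 in the NC mice and 18.1, 14.9 and 14.8 in the IVF mice (0.88 ± 0.28). Dnaja1, whose promoter is printed above, was at 7.16, 5.36 and 5.97 in the NC mice and 11.1, 9.38 and 16.6 in the IVF mice (0.87 ± 0.30). The chaperonin subunit Cct5 and the HSP110 relative Hspa4l, the latter tested through the IVF mice only, had differences of 0.85 ± 0.31 and 0.93 ± 0.28. The constitutive Hsp90ab1 overlapped between groups, at 41.4, 51.7 and 57.6 in the NC mice and 125, 55.5 and 55 in the IVF mice. Of 23 chaperone and unfolded protein response genes of the endoplasmic reticulum, 17 were higher, with a median of 0.13. It was −0.20 as deposited, −0.36 against NC mouse 1 alone and 0.40, with 17 of 23 higher, without NC mouse 1 and IVF mouse 2. Only Ddit3 (CHOP), a stress-induced transcription factor, was under 0.05 there, at 2.89, 2.68 and 2.83 in the NC mice and 4.22, 7.51 and 10.3 in the IVF mice (1.07 ± 0.33).

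**Figure D3:**
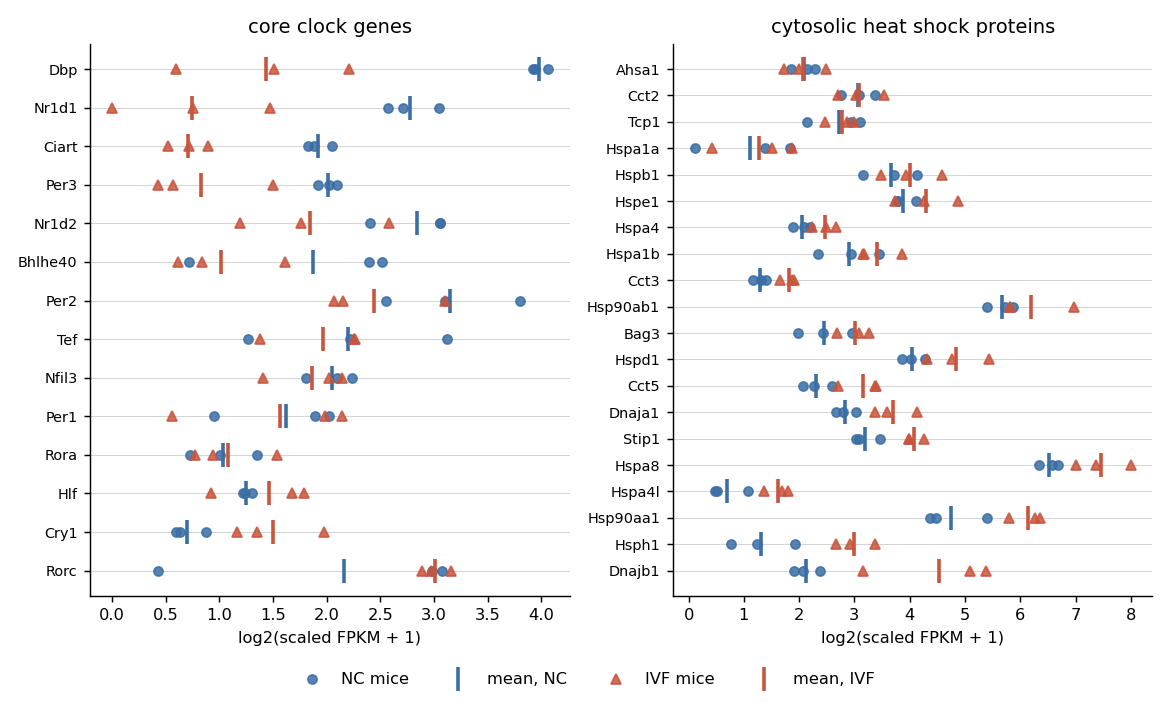
Level of each gene (log2(scaled FPKM + 1), horizontal axis) in each mouse for the 14 clock genes and the 20 heat shock genes tested, circles for NC mice, triangles for IVF mice and ticks for group means. Dbp, Nr1d1, Ciart and Per3 are lower in every IVF mouse than in any NC mouse, and 11 heat shock genes are higher in every IVF mouse.

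Immediate early and growth arrest genes, which are switched on within minutes of a growth or stress signal, held the gene with the smallest p, Gadd45g. This growth arrest and DNA damage gene was at 0.76, 4.95 and 4.32 in the NC mice and 68.9, 181 and 92.7 in the IVF mice, with a log2 fold change of 4.79 ± 0.57, adjusted p = 0.25. It was the protein-coding gene with the largest difference of those apart under both scalings, and the difference ranged from 4.24 to 5.11 when each mouse was left out in turn. Fos was at 0, 0.275 and 0.256 in the NC mice and 1.8, 4.71 and 4.02 in the IVF mice (1.88 ± 0.33) and Egr1 at 0.638, 1.21 and 0.389 in the NC mice and 3.61, 17.3 and 15 in the IVF mice (2.69 ± 0.53). Myc was at 0, 0.26 and 0.773 in the NC mice and 2.79, 1.53 and 3.11 in the IVF mice (1.38 ± 0.33). All 4 were apart, but Fos, Egr1 and Myc were tested through the IVF mice only, and Gadd45g through both groups. The class as a whole was not one-sided, and over the 14 genes with a mean of 1 or more in both groups 7 were higher and 7 lower. Of 21 genes 12 were higher and 9 lower, with a median of 0.26, or 0.39 against NC mouse 1 alone. As deposited it was −0.06, where that of all genes was −0.26. Ier2, the second most abundant, overlapped between groups, at 9.36, 13.5 and 10.1 in the NC mice and 5.24, 21 and 52.6 in the IVF mice (0.71 ± 0.72).

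Growth hormone signalling is pulsatile in male mice and sets both IGF1 output and the sex-biased liver genes. Socs2, a feedback inhibitor that growth hormone induces through STAT5, was at 0.969, 0.175 and 0.053 in the NC mice and 1.56, 11.1 and 9.96 in the IVF mice (2.37 ± 0.61). Every IVF mouse was above every NC mouse after scaling, but IVF mouse 2 was far closer to the NC mice than the other two were, and the gene was tested through the IVF mice only. Igf1 was at 44.1, 51.1 and 35.7 in the NC mice and 44.5, 81.5 and 93.8 in the IVF mice (0.68 ± 0.39), with IVF mouse 2 inside the NC range. Of 12 genes of the axis 7 were higher and 5 lower, 1 of them under 0.05. The 17 male-biased genes held 11 higher and 6 lower with none under 0.05, and their median of 0.18 turned to −0.26 without NC mouse 1 and IVF mouse 2. As deposited it was −0.15, where that of all genes was also −0.26. Of 18 female-biased genes 3 were high enough to be tested, among them Cyp2a4 at 1.72, 4.45 and 3.86 in the NC mice and 0.764, 0.357 and 2.4 in the IVF mice (−1.05 ± 0.43). The 18 major urinary protein genes encode carriers of pheromones in male urine and share reads because they are nearly identical. Of these 12 were lower and 6 higher, but none was under 0.05 or apart. The median was −0.56, or −0.94 against NC mouse 1 alone, −0.25 without NC mouse 1 and −0.23 without IVF mouse 4. For Mup3, at 966, 2093 and 2033 in the NC mice and 1099, 1141 and 790.3 in the IVF mice, NC mouse 1 lay with the IVF mice, whereas over the 18 genes NC mouse 1 had the highest mean log2 level of the 6 mice (5.41).

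Genes of bile acid synthesis, conjugation and transport were lower in IVF mice in 14 of 21 cases and higher in 7. Under 0.05 there were 4 lower and 0 higher, and 5 lower were apart. The median difference was −0.48, −0.58 against NC mouse 1 alone and −0.40 without both mice named above. Nr0b2 (SHP), a nuclear receptor that bile acids induce through FXR and that represses their synthesis, was at 7.05, 7.79 and 7.28 in the NC mice and 2.0, 0.921 and 1.62 in the IVF mice (−1.76 ± 0.26, adjusted p = 0.25). The NC mice lay within a narrow range, and the difference ranged from −1.9 to −1.58 when each mouse was left out. Cyp27a1, which opens the acidic pathway of bile acid synthesis, was at 50.8, 80.3 and 106 in the NC mice and 28.6, 24.6 and 31.6 in the IVF mice (−1.4 ± 0.37). Amacr, a peroxisomal racemase needed for side chain shortening, was at 4.52, 7.5 and 9.17 in the NC mice and 3.5, 2.54 and 2.37 in the IVF mice (−1.05 ± 0.31). Hsd3b7, an enzyme of the steroid ring, was at 40.1, 30.8 and 48.7 in the NC mice and 17.2, 0 and 11.9 in the IVF mice, with one IVF mouse listed at 0 (−2.7 ± 1.01). The repressor gene Nr0b2 and the enzyme genes Cyp27a1, Amacr and Hsd3b7, all with an unadjusted p under 0.05, were thus lower side by side. This does not extend to the whole class, in which 7 of 21 genes were higher. Cyp2c70, which makes muricholic acids in mice, overlapped, at 47.6, 66 and 45.4 in the NC mice and 39.7, 118 and 108 in the IVF mice, and so did the sterol carrier gene Scp2. The sterol transporter Abcg5, which exports cholesterol into bile, was at 3.72, 16.3 and 9.55 in the NC mice and 3.66, 1.7 and 3.26 in the IVF mice (−1.33 ± 0.50), where NC mouse 1 was close to the IVF mice.

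Fatty acid and sterol synthesis genes were mostly lower in IVF mice, but this rested on NC mice 5 and 6. Of 21 lipogenesis genes 17 were lower and 4 higher, with 3 lower under 0.05 and a median of −0.69. Against NC mouse 1 alone the median was 0.13, and without NC mouse 1 and IVF mouse 2 it was −1.14. Mlxipl (ChREBP), the transcription factor that couples glucose to lipogenesis, was at 49.4, 81.2 and 79.9 in the NC mice and 37.4, 24.5 and 29.6 in the IVF mice (−1.16 ± 0.35) and was apart. Acss2, which makes acetyl-CoA from acetate, was at 2.11, 3.14 and 5.71 in the NC mice and 1.36, 0.912 and 1.33 in the IVF mice (−1.01 ± 0.33). Gpam, the first step of triglyceride synthesis, was at 3.62, 9.02 and 8.28 in the NC mice and 2.71, 2.92 and 3.89 in the IVF mice (−0.86 ± 0.36), where NC mouse 1 lay inside the IVF range. Scd1, the stearoyl-CoA desaturase, overlapped, at 810.1, 701 and 589 in the NC mice and 235, 815 and 446 in the IVF mice, and so did Thrsp. Of 21 cholesterol synthesis genes 17 were lower and 4 higher, with a median of −0.41 that became 0.04 against NC mouse 1. Dhcr7, the last reductase of the pathway, was at 5.36, 6.57 and 6.02 in the NC mice and 2.12, 2.77 and 0.122 in the IVF mice (−1.56 ± 0.46), and Nsdhl was at 4.83, 7.33 and 8.36 in the NC mice and 3.98, 2.21 and 3.8 in the IVF mice (−0.85 ± 0.31). Both were apart, and for Dhcr7 NC mouse 1 stood with the NC group. Ebp and Insig1, the most abundant of the class, had differences of −0.12 and 0.02.

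Fatty acid oxidation genes were lower in 21 and higher in 11 of 32, with a median of −0.12, or −0.47 as deposited, −0.16 against NC mouse 1 alone and −0.06 without NC mouse 1 and IVF mouse 2. Many genes of this class are targets of PPARα, the fasting-activated fatty acid receptor. Cyp4a10, a fatty acid omega-hydroxylase and classic PPARα target, was at 45.5, 38.3 and 55.1 in the NC mice and 8.82, 17.1 and 15.3 in the IVF mice (−1.71 ± 0.35, adjusted p = 0.287). The groups were apart in scaled and deposited values, and NC mouse 1 lay with the other NC mice. Its relative Cyp4a14, tested through the NC mice only, overlapped (−1.29 ± 0.48). Cpt1a, the gate of mitochondrial fatty acid import, was at 3.94, 4.94 and 5.55 in the NC mice and 2.88, 1.7 and 2.38 in the IVF mice (−0.81 ± 0.26), and the ketone body enzyme Bdh1 was at 3.89, 4.03 and 3.73 in the NC mice and 2.49, 2.71 and 1.44 in the IVF mice (−0.63 ± 0.26). Fabp1, the fatty acid binding protein, had a difference of −0.51 ± 0.41 with overlapping groups. In all, 5 of the 32 were lower and 0 higher under 0.05. Among lipid droplet and lipolysis genes, Mgll, the monoglyceride lipase, was at 1.04, 1.06 and 3.41 in the NC mice and 4.32, 5.34 and 3.66 in the IVF mice (1.03 ± 0.36) and was the only one of 15 under 0.05.

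**Figure D4:**
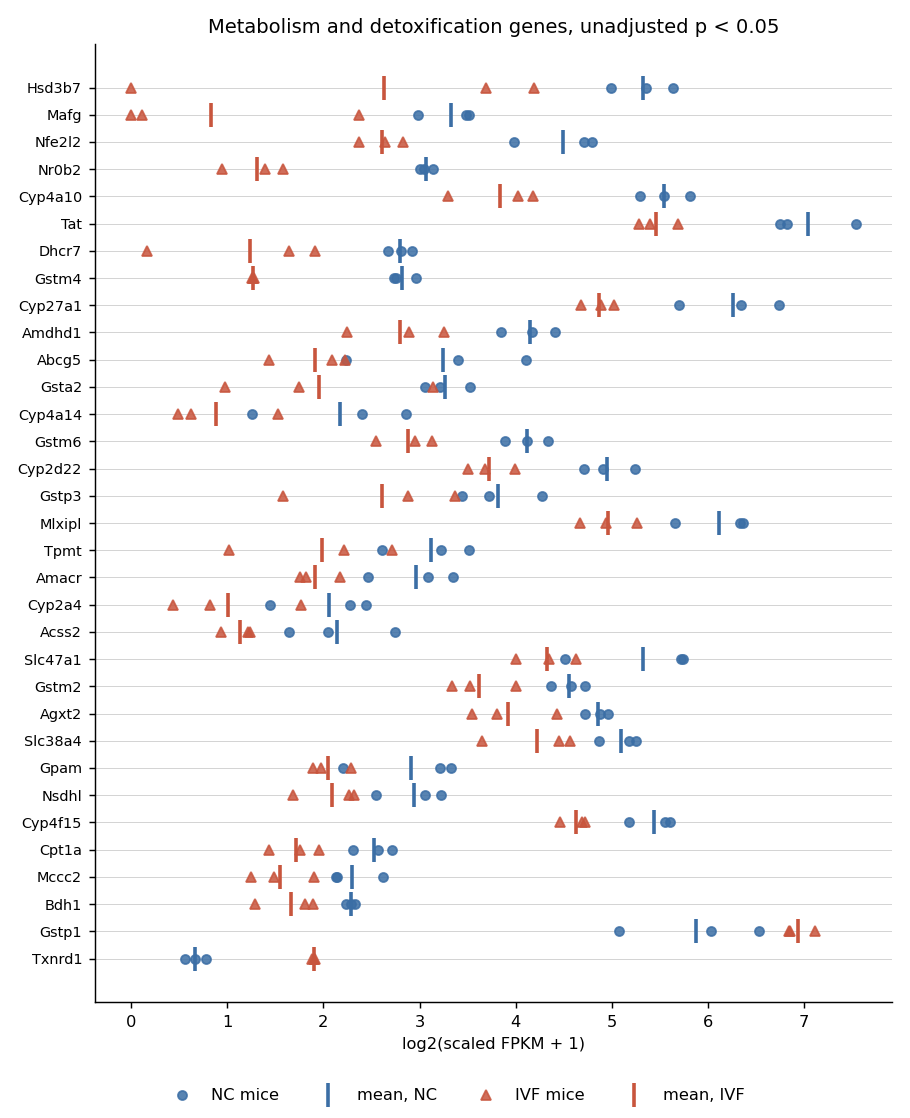
Level (log2(scaled FPKM + 1), horizontal axis) in each mouse of 33 genes of metabolism and detoxification with an unadjusted p under 0.05, ordered by difference, circles for NC mice, triangles for IVF mice and ticks for group means. The genes were selected by that p, so the separation is a description. Nr0b2, Gstm4, Cyp4a10 and Tat are lower in every IVF mouse, and Txnrd1 is higher in every IVF mouse.

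Amino acid breakdown genes were lower in 38 and higher in 18 of 56, with 4 lower and 0 higher under 0.05. The median of −0.21 became −0.04 against NC mouse 1 alone and −0.12 without NC mouse 1 and IVF mouse 2. Tat, the tyrosine aminotransferase that glucocorticoids and fasting induce, was at 106, 185 and 112 in the NC mice and 41.3, 37.9 and 50.6 in the IVF mice (−1.58 ± 0.35, adjusted p = 0.30). Amdhd1, of histidine breakdown, was at 17, 13.4 and 20.3 in the NC mice and 3.73, 6.41 and 8.57 in the IVF mice (−1.35 ± 0.35), and Agxt2 was at 25.4, 28.4 and 30.1 in the NC mice and 10.7, 12.9 and 20.5 in the IVF mice (−0.93 ± 0.33). Mccc2, of leucine breakdown, was at 5.17, 3.41 and 3.38 in the NC mice and 1.38, 1.81 and 2.73 in the IVF mice (−0.75 ± 0.28). In all 4 genes every IVF mouse was below every NC mouse. The abundant Hpd and Bhmt had overlapping groups, with differences of 0.19 and −0.67. None of the 10 urea cycle genes was under 0.05. Ass1, the argininosuccinate synthase of the cycle, was at 44.5, 179.7 and 132 in the NC mice and 70.7, 84.9 and 76.7 in the IVF mice, so that NC mouse 1 was the lowest of all 6 mice. Of the 13 metallothionein and glucocorticoid response genes, Tat and Klf15, a fasting-responsive activator of amino acid breakdown, were under 0.05, the latter at 10.5, 20 and 17.7 in the NC mice and 6.23, 9.0 and 10.4 in the IVF mice (−0.82 ± 0.35).

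Cytochrome P450 genes of families 1 to 4, the oxidizing enzymes of drug, steroid and fatty acid metabolism, were lower in 29 and higher in 14 of 43. The median was −0.38, or −0.22 against NC mouse 1. Of the 43 genes, 5 were tested through the NC mice only. Over the 38 tested through both groups 24 were lower and 14 higher, with a median of −0.19. Under 0.05 there were 5 lower and 0 higher of the 43. Besides Cyp4a10, Cyp4a14 and Cyp2a4, these were Cyp2d22 at 25.2, 29.1 and 36.8 in the NC mice and 10.3, 11.9 and 14.9 in the IVF mice (−1.23 ± 0.30) and Cyp4f15 at 35.2, 45.8 and 47.6 in the NC mice and 21.1, 24.8 and 25.3 in the IVF mice (−0.82 ± 0.29), both apart. The abundant Cyp2d10 and Cyp2a5 overlapped, with differences of 0.29 and 0.10. Reads of such gene families can be split between near-identical members.

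Among conjugation enzymes, 3 glutathione transferases of the mu class were lower in IVF mice. Gstm4 was at 5.63, 5.76 and 6.8 in the NC mice and 1.39, 1.41 and 1.43 in the IVF mice (−1.55 ± 0.23, adjusted p = 0.25), with the 3 IVF mice almost equal and below every NC mouse. Gstm6 was at 13.8, 16.4 and 19.2 in the NC mice and 6.74, 4.85 and 7.78 in the IVF mice (−1.24 ± 0.29) and Gstm2 at 19.7, 22.8 and 25.4 in the NC mice and 9.08, 10.5 and 15.1 in the IVF mice (−0.93 ± 0.30), both apart, while the far more abundant Gstm1 overlapped, at 244, 151 and 352 in the NC mice and 244, 182 and 190.2 in the IVF mice. The pi class was divided. Gstp1 was higher, at 32.6, 91.6 and 64.2 in the NC mice and 114, 114 and 138 in the IVF mice (1.06 ± 0.43), and Gstp3 lower, at 9.85, 18.3 and 12.2 in the NC mice and 1.99, 6.35 and 9.32 in the IVF mice (−1.2 ± 0.49). Over 44 conjugation genes 6 were lower and 2 higher under 0.05, and the median was −0.15. NRF2 (Nfe2l2), the transcription factor that induces many of these enzymes, was at 14.8, 26.8 and 25.1 in the NC mice and 5.25, 4.17 and 6.11 in the IVF mice (−1.88 ± 0.33, adjusted p = 0.287), with the groups apart in scaled and deposited values. Its partner Mafg was at 6.89, 10.4 and 10.2 in the NC mice and 4.16, 0 and 0.0842 in the IVF mice, with one IVF mouse listed at 0 (−2.5 ± 0.62). Txnrd1, the thioredoxin reductase and an NRF2 target, was higher, at 0.712, 0.584 and 0.47 in the NC mice and 2.69, 2.77 and 2.73 in the IVF mice (1.23 ± 0.22, adjusted p = 0.287). Mafg was tested through the NC mice only and Txnrd1 through the IVF mice only. Of 33 NRF2 and antioxidant genes 15 were higher and 18 lower, with a median of −0.12. It turned to 0.02 without IVF mouse 2 and to 0.12, with 18 of 33 higher, without NC mouse 1 and IVF mouse 2. Of 33 transporters 3 were lower under 0.05. Besides Abcg5 these were Slc38a4, an amino acid carrier, at 28.1, 35.2 and 37.2 in the NC mice and 22.6, 11.6 and 20.9 in the IVF mice (−0.88 ± 0.35), and Slc47a1, which extrudes organic cations, at 21.8, 52.4 and 51.9 in the NC mice and 15.1, 19.3 and 23.7 in the IVF mice (−1.0 ± 0.42).

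Secreted proteins gave differences in single genes rather than in whole classes. Apoa5, which promotes clearance of plasma triglyceride, was at 79, 8.88 and 12.1 in the NC mice and 77, 193 and 249.5 in the IVF mice (2.84 ± 0.84). NC mouse 1 lay with the IVF mice, and the difference was 0.96 against that mouse alone. Apob, the scaffold of VLDL, was at 28.7, 22.5 and 23.2 in the NC mice and 94.7, 57.8 and 40.7 in the IVF mice (1.27 ± 0.38, adjusted p = 0.451), where every IVF mouse was above every NC mouse. Apom was at 0.499, 2.53 and 2.29 in the NC mice and 7.13, 21.6 and 2.63 in the IVF mice (1.76 ± 0.67), with the lowest IVF mouse next to the NC mice. The other 20 apolipoprotein and lipoprotein genes tested were not under 0.05, and the class median was −0.02. Apoa2, the most abundant, had 11010, 10070 and 10440 in the NC mice and 6494, 8213 and 14150 in the IVF mice, and Apoc1 a difference of −0.32. Among 28 acute phase and plasma proteins, 14 were higher and 14 lower. Ahsg (fetuin A), an inhibitor of mineralization and of the insulin receptor, was at 243, 67.5 and 58.1 in the NC mice and 251, 294 and 255 in the IVF mice (1.42 ± 0.57), again with NC mouse 1 close to the IVF mice. Alb was at 6884, 8139 and 6632 in the NC mice and 4772, 7126 and 11600 in the IVF mice, a difference of 0.03 ± 0.44, and Ttr, the thyroxine carrier, at 875, 2423 and 2329 against 937, 1053 and 1161. Of 20 serpins, Serpina3k was at 560, 302 and 226 in the NC mice and 834, 757 and 799 in the IVF mice (1.24 ± 0.43) and was apart, while Serpina3m overlapped (1.37 ± 0.57) and Serpina1b and Serpina1c, the antitrypsins, had differences of 0.31 and 0.31. Reads can be split among these copies.

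In complement and coagulation, the clotting factors F11 and F7 were lower and the complement gene C4a higher. F11 was at 15.7, 10.4 and 15.7 in the NC mice and 7.46, 0.841 and 3.66 in the IVF mice (−1.82 ± 0.54) and F7, which starts the tissue factor pathway, at 16.3, 14.6 and 15.1 in the NC mice and 6.27, 9.23 and 9.5 in the IVF mice (−0.82 ± 0.28). C4a was at 26.8, 27.7 and 22 in the NC mice and 37.7, 52.1 and 81 in the IVF mice (1.07 ± 0.37). All 3 were apart, as were 6 higher and 6 lower genes of the 44 in all, whose median of 0.18 turned to −0.26 as deposited, which is that of all genes. Hamp, the gene of hepcidin, the hormone that blocks iron export, was at 297, 798 and 872 in the NC mice and 1084, 1807 and 2026 in the IVF mice (1.42 ± 0.53, adjusted p = 0.526), and every IVF mouse was above every NC mouse after scaling. Its copy Hamp2 ranged from 910.3, 2681 and 319 in NC to 1181, 91.8 and 2021 in IVF mice without order, and reads may be shared between them. Slc39a14, an importer of iron and zinc, was at 4.25, 4.02 and 5.67 in the NC mice and 2.41, 2.42 and 2.43 in the IVF mice (−0.71 ± 0.24). The other 14 iron genes tested were not under 0.05.

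Among hepatocyte transcription factors the central ones did not stand apart. Hnf4a was at 20.8, 23.7 and 22.4 in the NC mice and 23.4, 25.1 and 22.4 in the IVF mice, a difference of 0.08 ± 0.27, and Nr1h4 (FXR) at 5.66, 40.9 and 38.6 in the NC mice and 30.9, 31.7 and 44.3 in the IVF mice (0.70 ± 0.70), NC mouse 1 being far below the rest. Onecut1 (HNF6), a factor of liver and bile duct development, was at 0.229, 1.0 and 1.1 in the NC mice and 5.9, 2.53 and 1.37 in the IVF mice (1.16 ± 0.43), and the pioneer factor Foxa1 at 0.454, 0.983 and 1.44 in the NC mice and 1.73, 2.62 and 1.92 in the IVF mice (0.68 ± 0.29). Atf5, an activator of stress and amino acid response, was at 33.4, 26.8 and 22.7 in the NC mice and 18.6, 14.3 and 13.6 in the IVF mice (−0.79 ± 0.30). These were the 3 of 24 under 0.05. Among zonal genes, the 20 periportal markers had a median of −0.33, which was 0.41 against NC mouse 1, with 0 under 0.05, and the 19 pericentral markers one of −0.19 (−0.05 against NC mouse 1, 12 lower and 7 higher), with Cyp27a1 alone under 0.05. Uroc1, a periportal enzyme of histidine breakdown, had 26.9, 80.5 and 84.7 in the NC mice and 30.3, 23.4 and 25.6 in the IVF mice, so that NC mouse 1 lay with the IVF mice.

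Most ribosomal protein genes were higher after scaling, by an amount that depended on the scaling and on the mice. Of 83 cytosolic ribosomal protein genes 58 were higher and 25 lower, with a median of 0.19. As deposited it was −0.24, close to the −0.26 of all genes. Only Rpl41 at 14.1, 9.53 and 11.5 in the NC mice and 19, 64.7 and 25.6 in the IVF mice (1.38 ± 0.47) and Rpl14 at 30.8, 39.2 and 37.2 in the NC mice and 59.3, 83.3 and 59.1 in the IVF mice (0.88 ± 0.31) were under 0.05. Without NC mouse 1 and IVF mouse 2 the median was 0.56 and 78 of 83 were higher, whereas it was 0.02 against NC mouse 1. Processed copies of these genes can share their reads. Translation factors had a median of 0.17 over 54 genes, or −0.11 as deposited, with Eif5b, which joins the ribosomal subunits, at 4.33, 6.41 and 6.03 in the NC mice and 11.3, 22.9 and 8.65 in the IVF mice (1.12 ± 0.39). Eef1a1 and Eef2, the elongation factors, had differences of −0.07 and −0.05. Among 33 proteasome genes Psmd11 (1.13 ± 0.35) and Psmd1 (0.83 ± 0.33) were higher and apart, and the median was 0.03, or −0.30 as deposited.

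The mRNAs of the mitochondrial genome were mostly lower in IVF mice, while its tRNAs had no direction that held. Of the 13 mRNAs 12 were lower and 1 higher, with a median of −0.78, which was −1.25 as deposited, −0.80 without NC mouse 1, −0.74 against NC mouse 1 alone and −0.77 without NC mouse 1 and IVF mouse 2. Without IVF mouse 4 it was −0.29. Of the 22 mitochondrial tRNAs, 15 were lower and 7 higher, with a median of −0.19. Without NC mouse 1, 16 of the 22 were higher and the median was 0.19, and without IVF mouse 4 it was 0.25. The 2 ribosomal RNAs had a median of 1.78, which was 0.14 without IVF mouse 2, with 1 higher and 1 lower, and −0.64 against NC mouse 1 alone. Over all 37 transcripts the median was −0.33, or 0.03 without NC mouse 1. mt-Atp6, a subunit of ATP synthase, was at 9006, 36760 and 29320 in the NC mice and 3956, 8351 and 3725 in the IVF mice (−2.1 ± 0.64) and mt-Nd4l, of complex I, at 6065, 14280 and 11270 in the NC mice and 3627, 4622 and 925 in the IVF mice (−1.99 ± 0.68). Both were apart after scaling, with NC mouse 1 the lowest NC mouse. The cytochrome oxidase gene mt-Co1 overlapped, at 65490, 85810 and 69130 in the NC mice and 38010, 68940 and 17530 in the IVF mice. The ribosomal RNA mt-Rnr2 ran from 54690, 4121 and 3352 in NC to 269300, 17670 and 7771 in IVF mice, which shows how far IVF mouse 2 stood from the rest. Nuclear subunits of oxidative phosphorylation had a median of 0.05 over 77 genes, 43 higher and 34 lower, or −0.35 as deposited. Of these Ndufa6 of complex I was at 34.6, 32.4 and 27.8 in the NC mice and 12.4, 11.2 and 17.4 in the IVF mice (−1.17 ± 0.30) and Uqcrh of complex III at 13.8, 10.4 and 11.4 in the NC mice and 15.5, 34 and 20.7 in the IVF mice (0.86 ± 0.36). The 70 mitochondrial ribosomal protein genes held 2 higher and 4 lower under 0.05 around a median of 0.02, or −0.20 as deposited.

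Imprinted genes are read mainly from one parental copy, many of them only in certain tissues, and embryo culture can affect their marks. The list is of genes imprinted in some tissue, and Ube3a (neurons) and Slc22a3 (placenta) are not known to be imprinted in adult liver. Of 65 imprinted genes listed, 18 were high enough in adult liver to be tested, 14 of them higher and 4 lower, with a median of 0.20, or 0.00 as deposited, 0.39 against NC mouse 1 alone and 0.27 without NC mouse 1 and IVF mouse 2. Snrpn, a splicing protein gene read from the paternal copy, was at 3.43, 5.17 and 3.01 in the NC mice and 1.04, 0.487 and 0.454 in the IVF mice (−1.54 ± 0.28, adjusted p = 0.287). Ube3a, a ubiquitin ligase of the same imprinted region, was at 0.546, 0.313 and 0.352 in the NC mice and 1.34, 2.63 and 1.28 in the IVF mice (0.94 ± 0.29). Snrpn was tested through the NC mice only and Ube3a through the IVF mice only, so their directions were fixed by the filter. The groups were apart after scaling in both and as deposited in Snrpn. Slc22a3, an organic cation carrier also tested through the IVF mice only, was at 0, 0.897 and 0.534 in the NC mice and 0.902, 2.12 and 3.27 in the IVF mice (1.04 ± 0.39). Gnas was at 45.9, 38.5 and 39.8 in the NC mice and 48.8, 70.4 and 53.8 in the IVF mice (0.45 ± 0.31). These levels are low, Gnas aside. Only Snrpn, Ube3a and Slc22a3 of the 18 were under 0.05. These counts hold for the hand-written list, which may be incomplete and does not include the lower transporter gene Slc38a4. Of 41 chromatin regulators 30 were higher and 11 lower, with a median of 0.26. As deposited it was −0.03, where that of all genes was −0.26. Without NC mouse 1 and IVF mouse 2 the median was 0.02 and 21 of 41 were higher. The histone demethylases Kdm1b (1.44, 1.63 and 1.5 in the NC mice and 3.2, 2.95 and 2.64 in the IVF mice, 0.64 ± 0.22) and Kdm7a (1.26, 0.721 and 0.513 in the NC mice and 2.0, 1.99 and 1.68 in the IVF mice, 0.68 ± 0.26) and the remodeller Chd4 (3.28, 4.38 and 4.56 in the NC mice and 7.96, 6.34 and 6.78 in the IVF mice, 0.67 ± 0.25) were under 0.05 and apart, Kdm7a being tested through the IVF mice only. KDM1B is known for setting maternal imprints in oocytes, which is a different tissue. Of 74 splicing and RNA-binding proteins 2 were higher and 2 lower under 0.05, Snrpn among the latter.

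Immune classes showed little in common. B2m, the light chain of MHC class I, was at 1074, 1106 and 1204 in the NC mice and 659, 799 and 785 in the IVF mice (−0.60 ± 0.33), with every IVF mouse below every NC mouse after scaling, and none of 17 MHC genes was under 0.05. Of 18 interferon-stimulated genes 1 was higher and 1 lower under 0.05, Stat2 at 1.46, 2.85 and 3.57 in the NC mice and 2.76, 12.5 and 10.5 in the IVF mice (1.25 ± 0.52) and Irf9 at 0.557, 2.15 and 2.35 in the NC mice and 0.0712, 0.618 and 0.336 in the IVF mice (−0.94 ± 0.37). The groups overlapped in both, and Irf9 was tested through the NC mice only. Of 696 immunoglobulin and T cell receptor segments 25 were tested, 20 of them with a mean FPKM under 1 in the IVF mice, so that for these the filter itself fixed the lower direction. Of the 25, 15 were lower under 0.05, and 0 were apart. Trbd2 was at 0, 18.4 and 15.1 in the NC mice and 0, 0 and 0 in the IVF mice, and Trbv1 at 0, 8.63 and 6.78 in the NC mice and 0, 0 and 0 in the IVF mice. All 15 were listed at 0 in NC mouse 1 as in the 3 IVF mice and above 0 in NC mice 5 and 6 alone, the libraries with the most fragments on protein-coding genes. NC mouse 1 thus stood with the IVF mice, and the part of the number of lymphocytes or of depth in it was not tested. Of the other cell types, Colec11, a stellate cell marker, was at 1.87, 1.72 and 3.03 in the NC mice and 2.42, 9.76 and 7.5 in the IVF mice (1.1 ± 0.45). In all, 7 of 8 stellate and fibroblast genes were higher, with a median of 0.45. It was 0.17 as deposited, 0.20 against NC mouse 1 alone and 0.70 without IVF mouse 4. Spp1 (osteopontin), the most abundant cholangiocyte marker tested, was at 7.46, 10.6 and 6.2 in the NC mice and 3.44, 3.15 and 1.86 in the IVF mice (−1.25 ± 0.31) and apart in scaled and deposited values. All 5 red blood cell genes tested were lower, with a median of −1.14, or −0.50 without NC mouse 1 and IVF mouse 2. The globin gene Hbb-bs was at 192, 58.1 and 81.4 in the NC mice and 28.6, 42.1 and 48.5 in the IVF mice (−1.3 ± 0.50), so NC mouse 1 set much of the difference. Globin copies share reads.

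Many nuclear small RNA entries and retrocopies were low and tested through one group only, so the counts that follow describe the entries tested and not the classes. Of 1383 small nuclear RNA entries 34 were high enough to be tested, 31 of them higher, 8 of them under 0.05, with a median of 1.08 (0.97 as deposited and 0.52 against NC mouse 1). Of these 34, 15 had a mean under 1 in the NC mice and 4 in the IVF mice. Gm24924 was at 2.62, 0.556 and 0.301 in the NC mice and 5.54, 18.2 and 14.4 in the IVF mice (2.68 ± 0.53). Gm23238 and Gm22129 were listed at 0 in all NC mice and at 7.81, 3.19 and 3.36 and 1.94, 7.07 and 2.68 in the IVF mice. Of 33 small nucleolar and Cajal body RNAs 27 were higher, with a median of 1.04, which was 0.01 against NC mouse 1, and 11 had a mean under 1 in the NC mice and 3 in the IVF mice. Snord104, a guide of ribosomal RNA modification, was at 5.67, 10.9 and 9.3 in the NC mice and 15.4, 29.5 and 36 in the IVF mice (1.5 ± 0.41), and Snora68 at 0.334, 4.37 and 3.12 in the NC mice and 18.8, 11.7 and 6.47 in the IVF mice (2.0 ± 0.59). Rpph1, the RNA of RNase P, which trims tRNA precursors, was at 13.5, 3.49 and 13.5 in the NC mice and 158, 113 and 101 in the IVF mice (3.65 ± 0.52, adjusted p = 0.25), with the groups far apart and NC mouse 1 beside the other NC mice. By contrast the signal recognition particle RNA Rn7s2, at 1035, 66.3 and 78.2 in the NC mice and 5367, 678 and 581 in the IVF mice (2.86 ± 1.25), followed the libraries rich in ribosomal RNA. Of 51 microRNA entries 38 were higher, with a median of 0.53, and 15 had a mean under 1 in the NC mice and 7 in the IVF mice. Such entries are too short for this kind of library to tell the precursor from its host gene. Of 525 processed pseudogenes 361 were higher and 43 were under 0.05, against 8 lower, with a median of 0.32 that became −0.09 against NC mouse 1. Of these, 90 had a mean under 1 in the NC mice and 35 in the IVF mice, and their reads may come from the parent genes. The 194 lincRNA and antisense genes had a median of −0.02, with 20 higher and 13 lower under 0.05. Without stated strandedness, reads of an antisense gene and its partner cannot be told apart.

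Across all classes, 41 genes were higher and 236 lower in every IVF mouse than in every NC mouse in both scaled and deposited values, and 14 and 150 of these were protein-coding genes that also had an unadjusted p under 0.05. The deposited values, whose median over all genes is −0.26, favour lower genes in this count, and after scaling alone 501 higher and 598 lower genes were apart. The 10 in each direction with the largest difference include genes named above (Gadd45g, Fos, Hsph1, Txnrd1 and Onecut1 on the higher side, Dbp, Nr1d1, Hsd3b7, Mafg and mt-Nd4l on the lower side). Of the other higher genes, Sssca1 was at 0, 1.24 and 0.564 in the NC mice and 5.5, 11.2 and 5.55 in the IVF mice (2.41 ± 0.40), and Gdi2, which recycles Rab proteins, was at 0.133, 0.729 and 0.863 in the NC mice and 4.83, 4.5 and 2.15 in the IVF mice (1.6 ± 0.34). Slc19a2, a thiamine transporter, was at 0.071, 0.123 and 0.229 in the NC mice and 1.74, 0.821 and 2.92 in the IVF mice (1.24 ± 0.34). Rsc1a1 and Tchh completed this list, with 0.132, 0.112 and 0.0658 and 0.575, 0.211 and 0.277 in NC mice against 16.1, 3.49 and 0.454 and 4.4, 3.37 and 1.97 in IVF mice. All of these were low in NC livers, and each was tested through the IVF mice only. Of the other lower genes, Chrna4, a nicotinic receptor subunit, was at 0.535, 35.5 and 22 in NC mice and listed at 0 in all 3 IVF mice. Tymp, the thymidine phosphorylase, was at 5.86, 18.8 and 28.4 in the NC mice and 0.865, 3.84 and 0.55 in the IVF mice (−2.72 ± 0.64), and Sema4g, a semaphorin, was at 13.5, 44.9 and 36.4 in the NC mice and 6.31, 5.45 and 1.87 in the IVF mice (−2.51 ± 0.55). Map2k3, a kinase that activates p38, was at 11.8, 4.66 and 3.7 in the NC mice and 1.02, 0.503 and 0.509 in the IVF mice (−2.07 ± 0.40), and 1810055G02Rik was at 9.25, 9.13 and 8.32 in the NC mice and 0.698, 2.42 and 1.38 in the IVF mice (−2.04 ± 0.31). Chrna4, Map2k3, Mafg and Nr1d1 were tested through the NC mice only. A value of 0 in such a table can be a failed estimate.

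**Figure D5:**
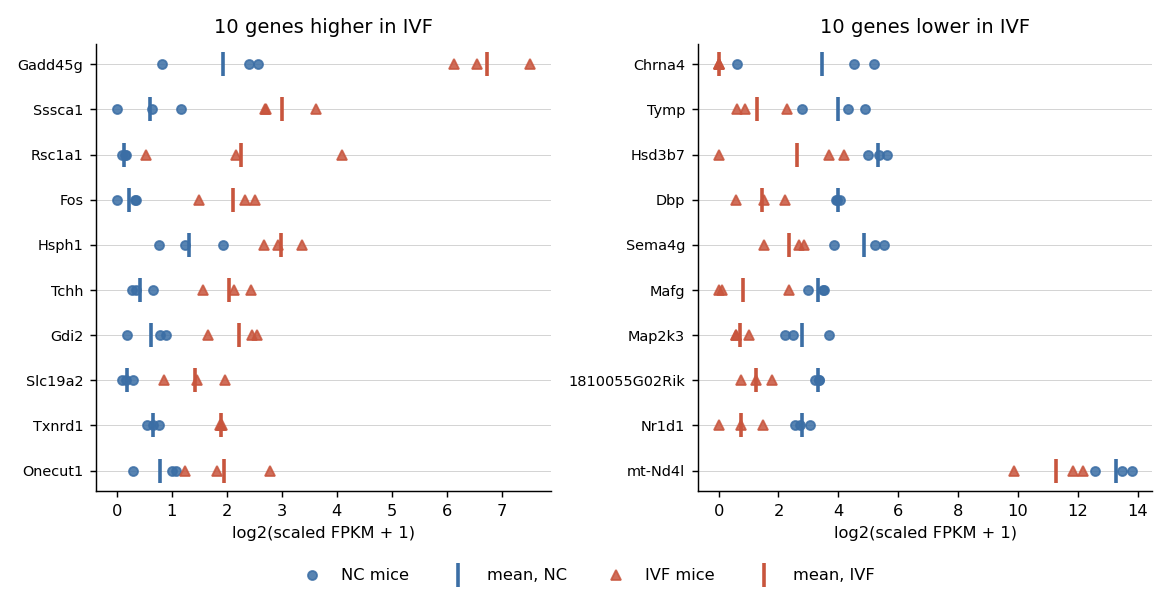
Level (log2(scaled FPKM + 1), horizontal axis) in each mouse of the 10 protein-coding genes with the largest positive and the 10 with the largest negative difference among those apart under both scalings with an unadjusted p under 0.05, circles for NC mice, triangles for IVF mice and ticks for group means. The selection itself requires that groups do not overlap, and Gadd45g and Chrna4 lead the 2 panels.

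Calls appeared when libraries were left out. Without NC mouse 1, 17 genes (0.239%) passed the adjusted threshold, 3 higher and 14 lower, of which 11 were immunoglobulin and T cell receptor segments. The 5 protein-coding ones were Chrna4, Slc39a7, Osgin1, Guca1a and Gadd45g. Of these, Chrna4, Slc39a7 and Guca1a were listed at 0 in all 3 IVF mice and were tested through the NC mice only. Their log2 fold changes were −4.86, −2.62 and −2.15 here and −3.44, −1.75 and −1.44 with all 6 mice. In NC mouse 1 Chrna4 was at 0.535, and Slc39a7 and Guca1a were at 0 as in the IVF mice. Leaving out this mouse thus made these differences larger. Without NC mouse 1 and IVF mouse 2, the remaining 2 and 2 mice gave 205 genes (2.88%), 123 higher and 82 lower. Of these, 97 were protein-coding, 44 processed pseudogenes and 17 immunoglobulin and T cell receptor segments, the segments all tested through the NC mice only. All 205 lay just under the threshold, with limma's adjusted p from 0.0411 to 0.0495. Among the protein-coding ones, the higher genes included Gadd45g (4.54), Apoa5 (4.28), Socs2 (3.37), Egr1 (3.29), Dnajb1 (3.24), Xbp1 (2.21), Fos (2.08), Ahsg (2.11) and Hsp90aa1 (1.9). The lower ones included Dbp (−2.95), Fasn (−2.63), Nfe2l2 (−2.15), Nr0b2 (−1.93), Bhlhe40 (−1.73), Acly (−1.69), Gstm4 (−1.58), Mlxipl (−1.55) and Per3 (−1.5), with log2 fold changes in parentheses. Of these, Socs2, Egr1 and Fos were tested through the IVF mice only, and Bhlhe40 and Per3 through the NC mice only. Fasn and Acly, the fatty acid synthase and the enzyme that feeds it, were at 4.53, 36.6 and 31.7 in the NC mice and 9.4, 3.62 and 5.95 in the IVF mice and at 2.04, 15.5 and 18.7 in the NC mice and 5.81, 5.09 and 4.15 in the IVF mice over the 6 mice, so NC mouse 1 lay with or below the IVF mice in both. In this subset the running numbers of the labels are far apart between the groups, so that anything the number stands for and the mode of conception cannot be told apart.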

How the data were processed

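Liver RNA of 3 NC and 3 IVF mice was analysed, and the 3 further mice of the series entered only 1 alternative, a model of all 9 mice. The authors isolated RNA with TRIzol, sequenced libraries on an Illumina Nova6000 and deposited FPKM values per Ensembl gene. The submitters' processing notes name FastQC 0.11.5, STAR 2.5.3a, StringTie 1.3.1c and DESeq2 1.16.1 without a role for each. The genome build, the annotation and the strandedness are not given in the sources used here. Of 55335 gene IDs, 55154 matched GENCODE vM21 (GRCm38), which gave symbols and biotypes only, and 181 carry no symbol.

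FPKM were divided by median-ratio size factors over the 9757 genes above 0 in all 6 mice (0.91, 1.31 and 1.5 in NC mice 1, 5 and 6 and 0.353, 1.08 and 1.77 in IVF mice 2, 3 and 4), since library composition differed. Tests covered genes whose mean FPKM reached 1 or more, and were run with limma 3.58.1 in R 4.3.3 on log2(scaled FPKM + 1), two-sided, with a variance trend and Benjamini-Hochberg adjustment over 7108 genes at 0.05. The values are not counts, so no count test was run. The fragment number came from low values lying within 2% of steps of up to 8 fragments (34.9% to 43.6% of them), is uncertain and covers counting error only. In simulated data for this comparison (7108 genes, 200 changed, 10 draws), 0% of changes of log2 1 were recovered, 49.5% of log2 2, 82% of log2 3 and 90.4% of log2 4, with 5.14% to 5.91% of the calls at log2 2 to 4 on unchanged genes. With 0 genes changed there were 0 calls. The changed genes were drawn from those with a mean log2 level above 3, and noise was drawn for each gene on its own. These shares therefore do not cover low genes or shifts of a whole library.

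Classes were 50 hand-written gene lists and the biotypes of the annotation. The members and lists were chosen with earlier results of these data known. The genes named by rule were the 10 protein-coding genes each way with the largest difference among those apart under both scalings with an unadjusted p under 0.05, and in each list with at least 5 tested members the 2 with the highest level and the one with the smallest p (139 genes in all, some of which are not reported here). Other genes in the text, mainly list members with an unadjusted p under 0.05 and genes called when libraries were left out, were chosen after their values were seen. In all, 15 alternatives were tried, among them no scaling, a pseudocount of 0.1, no filter, a filter at a mean FPKM of 10 and leaving out each mouse. NC mouse 1 as the only control, and leaving out NC mouse 1 with IVF mouse 2, are among them.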

Additional observations from a re-analysis of the deposited data

How the results depend on the processing

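No paired analysis was possible because the NC and IVF mice share no number in the labels. With 0 genes changed in the scaled values, the FPKM as deposited gave 21, leaving out 1 mouse gave 0 to 17 (17 without NC mouse 1 and 1 without IVF mouse 4), and leaving out NC mouse 1 and IVF mouse 2, chosen after seeing the data, gave 205. Genes at an unadjusted p under 0.05 numbered 634, against 358 as deposited, 1092 with no filter on low values, 115 with a filter at a mean FPKM of 10, 410 with NC mouse 1 as the only control, 1919 with both mice left out, and 302 to 1026 with 1 mouse left out. The median of all genes, 0.00, became −0.26 as deposited and −0.081 rescaled to nuclear protein-coding FPKM. As deposited, class medians were −0.78 for clock, −0.91 for bile acid, −0.74 for P450 and 0.27 for heat shock genes. At a filter of 10 few genes were left in some classes, and the values were −2.54 for clock (1 gene, Dbp), −0.19 for P450 (28 genes), 0.71 for immediate early (3), 0.87 for heat shock (9), 0.27 for small nuclear RNA (1) and 1.5 for small nucleolar RNA genes (1). A pseudocount of 0.1 gave 0.71 for heat shock, 2.5 for small nuclear and 2.02 for small nucleolar RNA genes. Against NC mouse 1 they were 0.13 for lipogenesis, −0.22 for P450, −2.28 for red blood cell and 0.0081 for small nucleolar RNA genes, and Tk1 reversed to 0.15. With both mice left out they were −1.14, −0.55, −0.50 and 1.46 for these 4 classes and 0.77 for heat shock genes. With 1 mouse left out, P450 genes ranged from −0.44 to −0.18, heat shock from 0.54 to 0.79 and small nucleolar RNA genes from 0.67 to 1.26. The difference in mitochondrial ribosomal RNA share, 5.23 percentage points, became 15.7 without the 3 non-coding entries. The causes were not tested. Of 822 recomputed medians of the 55 classes, 115 moved. Of 836 recomputed values of 58 genes, 815 kept their direction and side of the threshold, 20 passed it newly and 1 reversed. With all 6 mice no gene passed, so keeping its side meant not passing. The 58 do not hold every gene described above, and others changed sign. Nr1h4 had a difference of 0.70 that fell to −0.17 with 1 mouse left out. Ass1 had −0.40, which was 0.78 against NC mouse 1 alone. Depth limits genes near an FPKM of 1, where few fragments stand behind a value. In the simulated data, changes of log2 1 were not found with 3 mice a group.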
